A study of Mus musculus with 24 samples.

Results

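Hdac3, Crebbp, Ep300, Creb1, Bmi1 and Hmgb1 are the genes for acetylation and chromatin regulators on the panel that are described here. They were picked by name as 6 of the 770 genes of the table. No measured value served as a rule, but earlier results of these data were known when the choice was made. All 6 passed the filter on low values, which kept 621 genes for testing. Hdac3 is also 1 of the 20 housekeeping genes by which each sample was scaled.

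RNA was counted on a NanoString nCounter instrument, which reports single labelled molecules per gene, in mammary tumours grown from NT2.5 cells. These cells came from a spontaneous mammary tumour, and the hosts were female neu-N mice of the FVB background, 7 to 8 weeks old at implantation into the mammary fat pad. Treatment started 3 days later and went on for 3 weeks. The vehicle arm (4 samples) received methylcellulose by mouth and isotype antibodies. Every other arm received daily doses of 5 mg/kg entinostat (ENT), a drug that blocks histone deacetylases of class I. ENT alone, ENT with anti-PD-1 (ENT+PD1), ENT with anti-CTLA-4 (ENT+CTLA4) and ENT with both (ENT+PD1+CTLA4) had 4 samples each, and ENT with anti-CTLA-4 and anti-HER2 (ENT+CTLA4+HER2) had 2. Antibodies were given at 100 µg per mouse. Another pair of samples, on the second cartridge, carries the titles of ENT+PD1 replicates 1 and 2 again and is called the repeat-titled pair. No arm received a checkpoint antibody without entinostat. The protocol says that this model was studied with anti-HER2 as well as without it, so samples were grouped by title alone. The labels do not state that samples of an arm came from separate mice, so p-values measure the spread between these samples, which may be in part technical.

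The source is labelled as whole tumour, whereas the extraction text goes on to the isolation of immune cells. The epithelial genes Epcam, Cdh1 and Erbb2 were above the negative control probes in 24 of 24 samples. Recovered counts summed to between 226863 and 483418 per sample. Per the file headers, 12 samples ran on each of 2 cartridges, the disposable devices that hold the hybridized samples: ENT+PD1, ENT and vehicle were on the first, and all others on the second. A comparison between an arm of the first cartridge and an arm of the second therefore also compares the cartridges. The leukocyte gene Ptprc (CD45) ranged from 98.3 to 556 over the samples. Its 4 highest values were in ENT+PD1 replicates 5 and 6, ENT+PD1+CTLA4 replicate 1 and ENT+CTLA4 replicate 6. In RNA from whole tissue, fewer cells of a type and less RNA per cell cannot be told apart.

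Histone acetylation is set by acetyltransferases and removed by deacetylases. HDAC3 is a class I deacetylase that works inside the NCoR/SMRT corepressor complex and is among the enzymes that entinostat inhibits. CBP (Crebbp) and p300 (Ep300) are paralogous acetyltransferases and coactivators, and CBP was named for its binding to the phosphorylated transcription factor CREB (Creb1). BMI1 is a RING finger subunit of Polycomb repressive complex 1, known in mammary tissue for supporting self-renewal and for silencing the Cdkn2a locus. HMGB1 is an abundant chromatin protein that bends DNA in the nucleus. Released from damaged cells, it acts as an alarm signal through RAGE and Toll-like receptors, and acetylation favours its release.

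Bmi1 and Hmgb1 were the members whose arm means differed most, and both were lower on the second cartridge. Their upstream sequences are shown to set the 2 genes side by side. RefSeq's promoter table (GRCm38.p6) held windows for 5 of the 6 genes. Each sequence below is the 250 bases just upstream of an annotated start, on the gene's strand, 5′ to 3′. Capitals mark matches on either strand to GGGCGG (the core of a GC box), CCAAT (the CCAAT box) or TGACG (the core of the cAMP response element bound by CREB).
Bmi1, chr2:18676768-18677017, plus strand: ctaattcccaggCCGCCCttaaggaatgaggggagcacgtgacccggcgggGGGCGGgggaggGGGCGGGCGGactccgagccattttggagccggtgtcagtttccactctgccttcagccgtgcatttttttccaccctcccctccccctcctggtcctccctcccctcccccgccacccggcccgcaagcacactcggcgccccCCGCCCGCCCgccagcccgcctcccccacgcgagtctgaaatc
Hmgb1, chr5:149051617-149051866, minus strand: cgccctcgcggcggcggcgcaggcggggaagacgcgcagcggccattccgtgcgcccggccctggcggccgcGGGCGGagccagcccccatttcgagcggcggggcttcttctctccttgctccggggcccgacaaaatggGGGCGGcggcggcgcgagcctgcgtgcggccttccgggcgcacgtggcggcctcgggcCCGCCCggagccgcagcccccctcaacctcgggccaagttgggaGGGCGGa
Hmgb1, chr5:149053058-149053307, minus strand: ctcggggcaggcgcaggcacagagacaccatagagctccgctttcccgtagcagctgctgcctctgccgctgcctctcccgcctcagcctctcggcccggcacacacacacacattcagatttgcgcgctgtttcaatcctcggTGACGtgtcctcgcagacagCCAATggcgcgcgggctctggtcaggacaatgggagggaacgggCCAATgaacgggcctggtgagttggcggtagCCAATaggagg
The Bmi1 window held 6 matches to GGGCGG, some of which overlap, and none to CCAAT or TGACG. The first Hmgb1 window held 4 matches to GGGCGG and neither of the other motifs. The second held 3 matches to CCAAT, 1 to TGACG and none to GGGCGG. Among all 32851 windows of the same length in the table, 32.7% held GGGCGG, 33.8% held CCAAT and 17.8% held TGACG. None of the 6 windows of the 5 genes held the full palindrome TGACGTCA, which 1.55% of all windows did. These matches describe letters and not bound sites.

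None of the 6 genes changed between any arms by the test used, limma on log2(value + 1) with a Benjamini-Hochberg adjusted p under 0.05. This held for all 8 comparisons between arms, and for the F test over the 5 arms of 4 samples (all but the anti-HER2 arm). Over all genes the same rule called 0% in ENT against vehicle, 0.322% in ENT+PD1 against ENT and 0% in ENT+PD1 against vehicle. It called 1.45% in ENT+CTLA4 against vehicle, 0% in ENT+CTLA4 against ENT and 2.09% in ENT+PD1+CTLA4 against vehicle. It called 0% in ENT+PD1+CTLA4 against ENT+CTLA4, 2.25% in ENT+CTLA4+HER2 against ENT+CTLA4, and 3.22% by the F test. With so few calls over the panel, 0 of 6 members is near the background. At an unadjusted p under 0.05, 5 of the 48 member comparisons passed in limma, where 12.5% of the comparisons of all genes did. Neither edgeR nor DESeq2 on the recovered counts called a member in any of these comparisons.

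The intervals say how large a difference these samples leave room for. With the deposited scaling, all 48 of the 95% intervals lay within a 2-fold difference either way and 44 within 1.5-fold. Over all genes tested, 58.1% of intervals lay within 2-fold. The lowest bound was -0.91 on the log2 scale, a fall of 1.88-fold, and belonged to Bmi1 in ENT+PD1+CTLA4 against vehicle. The highest was 0.48, a rise of 1.39-fold, and belonged to Hmgb1 in ENT against vehicle. When each sample was scaled to its median gene instead, 44 of 48 intervals lay within 2-fold, with a lowest bound of -1.15 and a highest of 0.81. Quantile normalization also left 44 of 48 within 2-fold, with a lowest bound of -1.26 and a highest of 0.68.

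**Figure D1:**
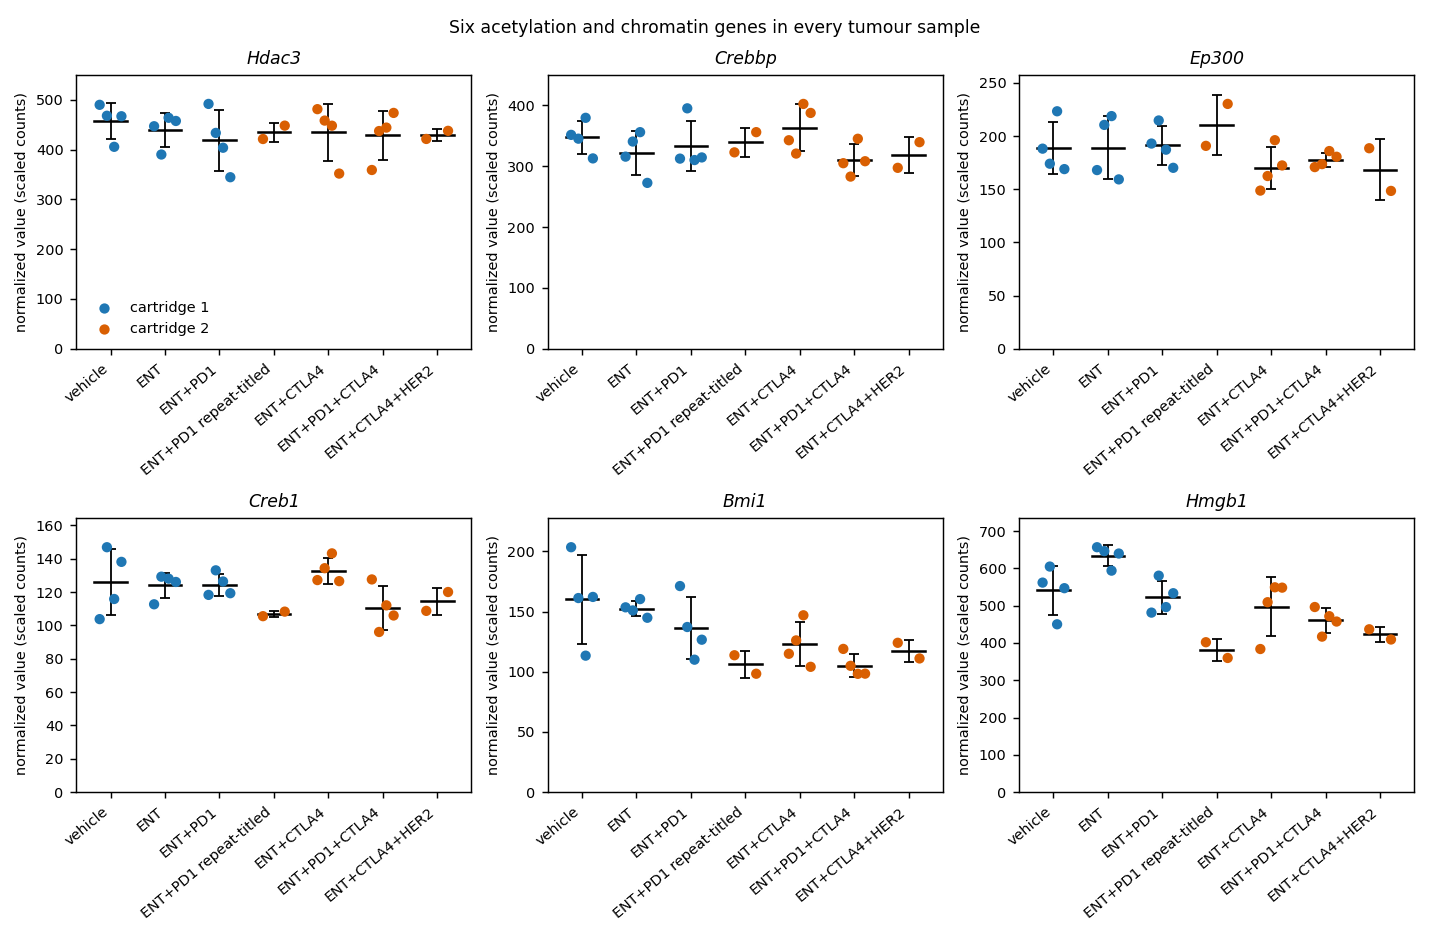
Normalized value (housekeeping-scaled counts, linear axis from 0) of each gene in each of the 24 samples, by arm. Points are samples, coloured by cartridge, and black lines are the arm mean with its SD. Bmi1 and Hmgb1 have lower values on the second cartridge, most arms of the other 4 genes overlap, and Creb1 in ENT+CTLA4+HER2 lies below all ENT+CTLA4 samples.

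**Figure D2:**
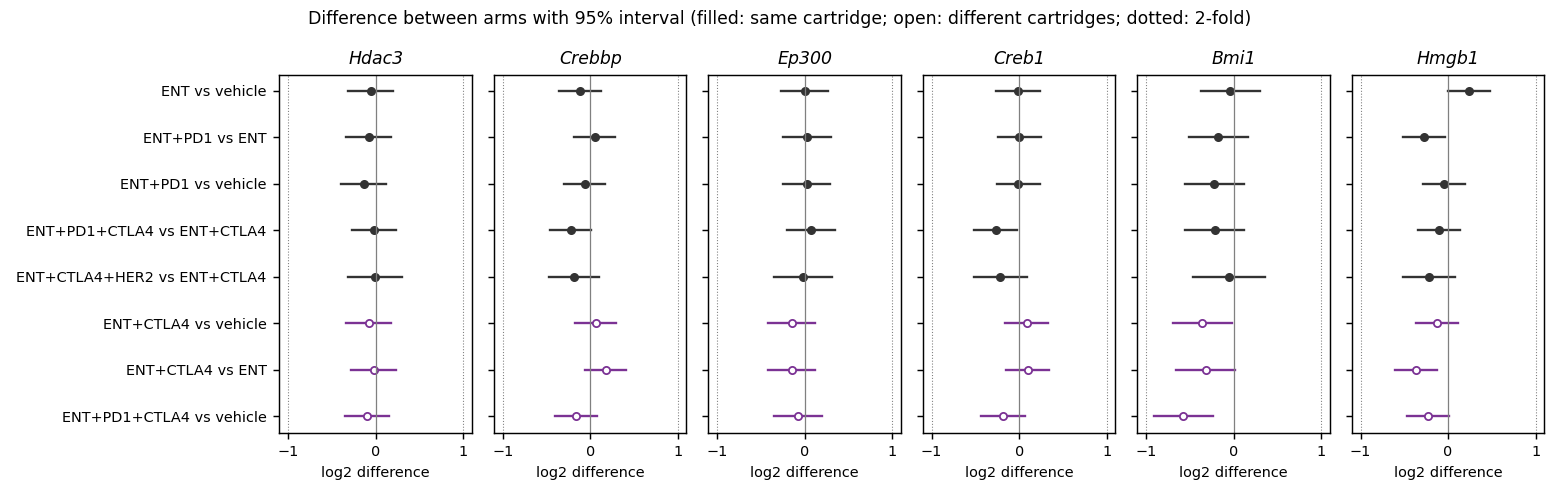
Log2 difference between arms (horizontal axis) with its 95% interval from limma, for 8 comparisons (rows) and 6 genes (panels). Filled points compare arms on the same cartridge, open points arms on different cartridges, and dotted lines mark a 2-fold difference. All 48 intervals lie inside the dotted lines.

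Hdac3, the deacetylase, had nearly the same mean in every arm with the deposited scaling. The vehicle samples had normalized values of 406, 467, 468 and 489.9, and the ENT samples 390.1, 447, 458 and 464. The means were 458 ± 36.3 (SD, n = 4) in vehicle and 439.6 ± 33.7 (SD, n = 4) in ENT, and the values overlap. The log2 difference was -0.06 ± 0.12 (SE), with a limma adjusted p of 0.999. Arm means ran from 418 ± 61.3 in ENT+PD1 (SD, n = 4) to that of vehicle, a 1.09-fold range. No neighbours in that order differed beyond their spread.

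The 3 lowest Hdac3 values sat in samples with much Ptprc. They were 345 in ENT+PD1 replicate 6, 352 in ENT+CTLA4 replicate 6 and 359 in ENT+PD1+CTLA4 replicate 1. Ptprc was 556, 430.3 and 501 in these samples. The next lowest Hdac3 value, 390.1 in ENT replicate 2, came with a Ptprc of 150. In the first cartridge, Hdac3 was lower where Ptprc was higher across the 12 samples (r = -0.82, Spearman's rho = -0.63). The permutation p was 0.0147 for r and 0.192 for rho after adjustment over 12 relations. The permutations, here and below, ignored the arms. Without the 2 samples farthest from the median of Ptprc, r was -0.60. In the second cartridge r was -0.63 (rho = -0.35, adjusted permutation p of 0.112 and 0.637), and 0.04 without the 2 farthest samples, so there the relation rests on those samples. Over the 24 samples the median r of Hdac3 with all genes tested was -0.25, so values below 0 were common for it. For the other members this median lay between -0.06 for Ep300 and 0.13 for Creb1. The part of cell makeup in Hdac3's level was not tested.

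Being a scaling gene, Hdac3 could hold its own level steady. Leaving it out of the housekeeping set moved the scale of a sample by at most 1.21%. The ENT against vehicle difference was -0.06 with and without it. Both outcomes follow from the small share of Hdac3 in the mean of that set. They therefore cannot decide whether the scaling holds its level steady, which was not tested. Relative to the median gene, the Hdac3 difference was 0.09 in ENT against vehicle. In ENT+PD1 against ENT it was -0.44 on that scale and -0.08 with the deposited scaling. The recovered Hdac3 count was between 248 and 547 per sample.

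The acetyltransferase genes Crebbp and Ep300 stayed within narrow ranges. Crebbp measured 313, 345, 352 and 379.6 in vehicle, and 273, 316, 341 and 356 in ENT, which overlap. The log2 difference was -0.12 ± 0.11 (SE, limma adjusted p of 0.999). Crebbp was highest in ENT+CTLA4, at 363 ± 38.1 (SD, n = 4), and lowest in ENT+PD1+CTLA4, at 310.3 ± 25.8 (SD, n = 4). These arms share a cartridge, and their samples ran from 321 to 402 and from 283 to 345, which overlap. The log2 difference was -0.22 ± 0.11 (SE, limma adjusted p of 1.00), and no gene of the panel was called in this comparison.

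Ep300 measured 169, 174, 188 and 223 in vehicle, and 159, 168, 211 and 219 in ENT. The means were 189 ± 24.5 and 189 ± 29.9 (SD, n = 4 each), with a log2 difference of -0.00078 ± 0.13 (SE, limma adjusted p of 0.999). Its arm means spanned 1.13-fold, from 169 ± 28.4 in ENT+CTLA4+HER2 (SD, n = 2) to 191 ± 18.4 in ENT+PD1 (SD, n = 4). In the repeat-titled pair Ep300 measured 191 and 230.3, against 193 and 215 in the samples of the same titles. No neighbours in either gene's order of arms differed beyond their spread.

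Crebbp and Ep300 were high and low in the same samples of the first cartridge (r = 0.80, rho = 0.71, n = 12). The permutation p of r was 0.0483 and that of rho 0.172, adjusted over the 30 member pairs and cartridges. Without the 2 samples farthest from the median of Crebbp, r was 0.71, and with the arm means removed it was 0.85. In the second cartridge r was 0.18 (rho = 0.24, adjusted permutation p of 0.993 and 0.974). The difference between the cartridges was not tested.

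Creb1, the cAMP-responsive factor, was counted between 64 and 167 times per sample. It measured 104, 116, 138 and 147 in vehicle, and 113, 126, 128 and 129 in ENT, where the ENT samples lie inside the vehicle range. The log2 difference was -0.01 ± 0.12 (SE, limma adjusted p of 0.999). It measured 127, 127, 134 and 143 in ENT+CTLA4, against 96.1, 106, 112 and 128 where anti-PD-1 was added (ENT+PD1+CTLA4). The means were 133 ± 7.77 and 110.4 ± 13.2 (SD, n = 4 each), and 1 sample of the second arm overlaps the first. The difference of -0.27 ± 0.12 (SE) passed an unadjusted p of 0.0331, and its limma adjusted p was 1.00. In ENT+CTLA4+HER2 Creb1 measured 109 and 120.1, below all ENT+CTLA4 samples, a pattern that 6.28% of all genes showed in this direction. That difference was -0.21 ± 0.14 (SE, limma adjusted p of 0.482).

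Whether adding anti-PD-1 acted differently with and without anti-CTLA-4 was tested as an interaction in the same fit, a test added after the data were seen. None of the 6 members passed, nor did any other gene, with 42 genes at an unadjusted p under 0.05. The largest member values were -0.28 ± 0.16 (SE) for Crebbp, with a limma adjusted p of 0.598, and -0.27 ± 0.17 (SE) for Creb1, with 0.603.

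Bmi1, the Polycomb subunit, varied most among the arms. It measured 113, 161, 162 and 203 in vehicle, 145, 151, 154 and 160.4 in ENT, and 110.0, 127, 137 and 171 in ENT+PD1. On the second cartridge ENT+CTLA4 samples measured 104, 115, 126 and 147, ENT+PD1+CTLA4 samples 98.3, 98.4, 105 and 119, and ENT+CTLA4+HER2 samples 111 and 124. Vehicle was the highest arm at 160.0 ± 36.8 (SD, n = 4) and ENT+PD1+CTLA4 the lowest at 105 ± 9.72 (SD, n = 4), although vehicle replicate 3, at 113, lies inside the range of the lower arm. The order of the arm means was vehicle, ENT, ENT+PD1, ENT+CTLA4, ENT+CTLA4+HER2 and ENT+PD1+CTLA4, in which neighbours overlap.

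The difference between ENT+PD1+CTLA4 and vehicle was -0.58 ± 0.16 (SE), with a limma adjusted p of 0.0702, the smallest of any member. Without vehicle replicate 3 it was -0.73 with an adjusted p of 0.0199, and the adjusted p of the F test went from 0.125 to 0.0313. Those were the only 2 calls of a member under all alternatives tried. Leaving out vehicle replicate 3 also raised the number of genes called over the whole panel. It went from 13 to 18 in ENT+PD1+CTLA4 against vehicle and from 20 to 36 by the F test. The gain in calls was thus not particular to Bmi1. With the cartridge as a term, joining the repeat-titled pair to ENT+PD1, the Bmi1 difference was -0.23 ± 0.25 (SE, limma adjusted p of 0.589). The F test of Bmi1 then had a limma adjusted p of 0.693. The cartridge term rests on the 2 samples of the pair against the 4 of ENT+PD1, the only arm then on both cartridges. Ptprc was 150 and 244 in the pair, and 109, 158, 438 and 556 in the others. The term may thus also hold a difference in cell makeup, which was not tested. Within the first cartridge, ENT differed from vehicle by -0.04 ± 0.16 and ENT+PD1 from ENT by -0.18 ± 0.16 (SE, limma adjusted p of 0.999 and 0.468). Within the second, ENT+PD1+CTLA4 differed from ENT+CTLA4 by -0.22 ± 0.16 (SE, adjusted p of 1.00).

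Bmi1, too, was low where Ptprc was high in the first cartridge. There r was -0.78 and rho -0.74 (n = 12, permutation p of 0.0147 and 0.0973 after adjustment over 12 relations), and r was -0.82 without the 2 samples farthest from the median of Ptprc. In the second cartridge r was 0.14 and rho 0.17 (adjusted permutation p of 0.743 and 0.724). The difference between the cartridges was not tested. The other 4 members had r between -0.36 and 0.48 against Ptprc. With each sample scaled to its median gene, all 12 values of r were below 0, from -0.91 to -0.44, those of the other 4 members included. Any value already below 0 thus kept its sign, which does not set Hdac3 and Bmi1 apart from the other members. That of Bmi1 in the second cartridge changed sign. Bmi1 and Hdac3 were high and low in the same samples of the first cartridge (r = 0.73, rho = 0.87, permutation p of 0.101 and 0.0153 adjusted over 30 relations). There r was 0.96 without the 2 samples farthest from the median of Hdac3, and 0.69 with the arm means removed. In the second cartridge r was -0.0028 and rho -0.02 (adjusted permutation p of 0.993 and 0.974).

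Hmgb1, the chromatin protein and alarm signal, was highest under entinostat alone. It measured 450.1, 547, 562 and 605 in vehicle, and 594, 639.9, 646 and 657 in ENT, where 1 ENT sample lies below the highest vehicle sample. The means were 541 ± 65.4 and 634 ± 27.7 (SD, n = 4 each). The difference of 0.24 ± 0.11 (SE) had an unadjusted p of 0.0533 and a limma adjusted p of 0.999. In ENT+PD1 Hmgb1 measured 481, 496, 533 and 580.5, all below the ENT samples, a pattern that 0.966% of all genes showed in this direction. The difference of -0.28 ± 0.11 (SE) had an unadjusted p of 0.0243 and a limma adjusted p of 0.236.

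Hmgb1 on the second cartridge measured 384, 509, 548 and 549 under ENT+CTLA4. It measured 417, 457, 472 and 496 under ENT+PD1+CTLA4, and 409 and 437 under ENT+CTLA4+HER2. All ENT+CTLA4 samples lie below all ENT samples, as they did for 5.64% of all genes, and the difference was -0.36 ± 0.11 (SE, limma adjusted p of 0.196). With the cartridge as a term, which rests on the repeat-titled pair, that difference was 0.09 ± 0.18 (SE, adjusted p of 0.747). ENT+CTLA4 against vehicle likewise went from -0.13 ± 0.11 (SE, adjusted p of 0.688) to 0.33 ± 0.18 (SE, adjusted p of 0.377). ENT+PD1+CTLA4 against vehicle went from -0.23 ± 0.11 (SE, adjusted p of 0.395) to 0.23 ± 0.18 (SE, adjusted p of 0.463). The limma adjusted p of the Hmgb1 F test went from 0.112 to 0.581 with the cartridge term. The order of the arm means was ENT, vehicle, ENT+PD1, ENT+CTLA4, ENT+PD1+CTLA4 and ENT+CTLA4+HER2. Vehicle and ENT+PD1, and all later neighbours, overlap. Hmgb1 belongs to a family with close copies in the mouse genome, and how far its probe tells these apart was not tested.

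The repeat-titled pair is the only treatment name on both cartridges. Bmi1 measured 171 and 137 in ENT+PD1 replicates 1 and 2 on the first cartridge, and 114 and 98.3 under the same titles on the second. The log2 differences were -0.59 and -0.48. Hmgb1 measured 481 and 580.5 on the first and 402 and 359.8 on the second, differences of -0.26 and -0.69. Creb1 measured 118 and 133 against 106 and 108, differences of -0.16 and -0.29. For these 3 genes both later samples were below both earlier ones, which was the case for 36.6% of all genes tested, while 13.2% were higher in this sense. Hdac3, Crebbp and Ep300 moved by -0.09, -0.05 and 0.04 on average, against a median of -0.14 over all genes. Over the whole cartridges, Bmi1 averaged 149.6 ± 25.9 on the first and 113 ± 14.4 on the second (SD, n = 12 each), and Hmgb1 566 ± 67.1 and 453 ± 62.8 (SD, n = 12 each). The mean of the negative control probes, scaled like the genes, was 5.42 to 12.7 on the first cartridge and 3.59 to 7.86 on the second, and its part in these differences was not tested. Whether the pair repeats the same RNA is not stated, and with different arms on the cartridges, arm and cartridge cannot be told apart in these means.

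**Figure D3:**
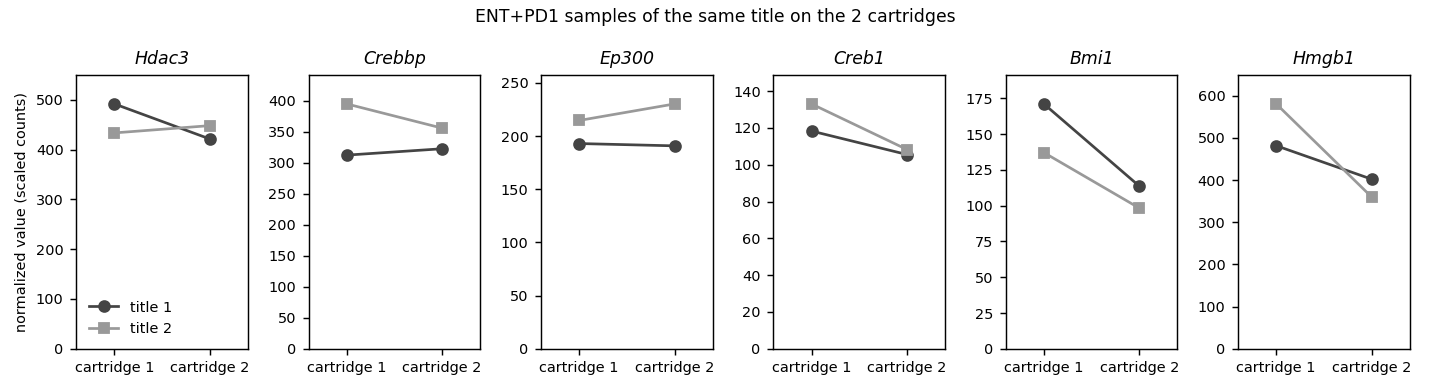
Normalized value (linear axis from 0) of each gene in the ENT+PD1 samples titled 1 and 2 on the first cartridge and in the samples of the same title on the second. Lines join equal titles. Creb1, Bmi1 and Hmgb1 are lower on the second cartridge under both titles, and Crebbp, Ep300 and Hdac3 go down under one title and up under the other.

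The spread between samples of an arm was small for all 6 genes. The SD of log2 values within arms was 0.16 for Hdac3, 0.15 for Crebbp, 0.17 for Ep300, 0.14 for Creb1, 0.22 for Bmi1 and 0.15 for Hmgb1. The median over the genes tested was 0.40, and over the housekeeping genes 0.15. For Creb1, counting error alone would give an SD of 0.13, so the variance between its samples was 1.09 times that of counting. For the others this ratio was between 2.35 for Ep300 and 5.37 for Hmgb1. Of 123 genes with counts like those of Creb1, 6 had a smaller SD. Of 122 genes with counts like those of Bmi1, 40 did.

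**Figure D4:**
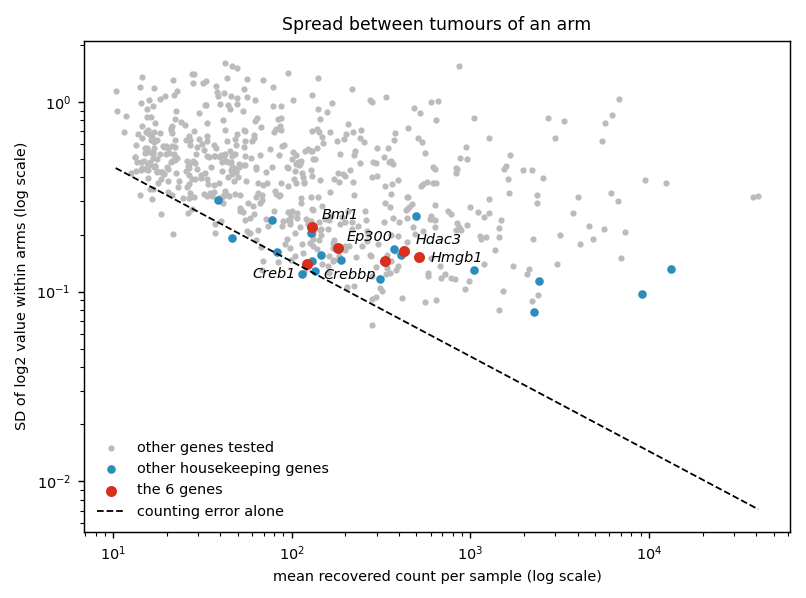
SD of the log2 value within arms against the mean recovered count per sample, both on log scales, for the 621 genes tested. Red points are the 6 genes, blue points the other housekeeping genes, and the dashed line the SD that counting error alone would give. Creb1 lies close to the line, and Bmi1 has the highest SD of the 6.

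The scaling sets the sign of several member differences. With the deposited scaling the median of all genes moved by 0.34 in ENT+PD1 against ENT, by 0.18 in ENT+PD1 against vehicle, by 0.17 in ENT+CTLA4+HER2 against ENT+CTLA4 and by -0.11 in ENT against vehicle. In ENT+PD1 against ENT, 3 of 6 members were lower, with values from -0.28 for Hmgb1 to 0.05 for Crebbp. Relative to the median gene, all 6 were lower in this comparison, from -0.64 for Hmgb1 and -0.54 for Bmi1 to -0.31 for Crebbp. Quantile normalization gave -0.61, -0.51 and -0.26 for the same 3 genes. In ENT against vehicle, 5 of 6 members were lower with the deposited scaling, and none with the median gene as the reference, where they lay between 0.03 and 0.38. None of these differences was called under any of the scalings.

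**Figure D5:**
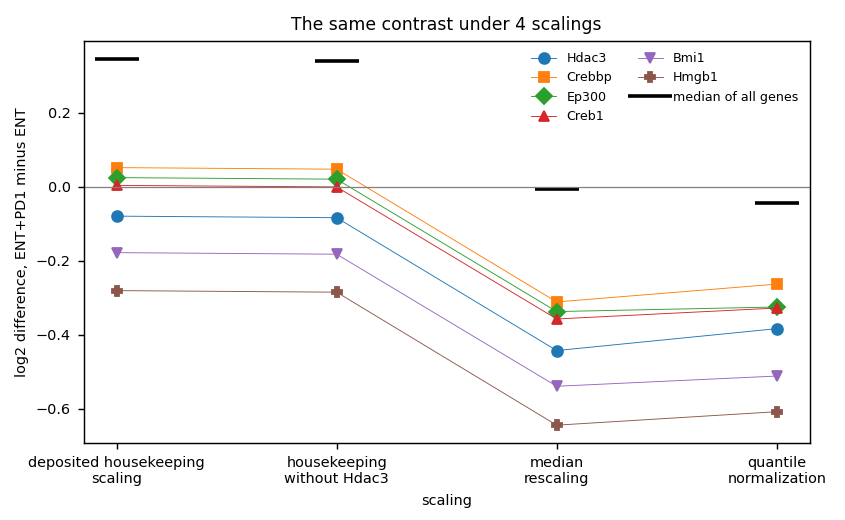
Log2 difference of ENT+PD1 minus ENT (vertical axis) for each gene under 4 scalings (horizontal axis). Coloured symbols are the 6 genes and black bars the median of all genes tested. With the deposited housekeeping scaling the members lie between -0.28 and 0.05 and below the median of 0.34, and with the median gene as reference they lie between -0.64 and -0.31.

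The genes whose levels went most with each member over the 24 samples were read as a description, since arm, cartridge and scaling are shared by all of them. Bmi1 went most with Rps6 (r = 0.75), a ribosomal protein gene, then with Syt17 (0.71) and Atg12 (0.70). Hmgb1 went with the proteasome gene Psmb7 (0.68) and with Bmi1 (0.67). The tumour suppressor gene Pml had the lowest r with both, -0.70 with Bmi1 and -0.82 with Hmgb1. Within the cartridges the r of Bmi1 with Rps6 was 0.83 and 0.21, and that of Hmgb1 with Pml -0.53 and -0.76. That of Bmi1 with Pml was -0.64 and -0.29. Crebbp went most with Polr2a (0.60), the large subunit of RNA polymerase II, followed by Cd276 (0.50) and Runx1 (0.47). Ep300 went most with the growth factor receptor gene Igf1r (0.62), Runx1 (0.59) and Il18r1 (0.59). Within the cartridges its r with Il18r1 was -0.02 on the first and 0.83 on the second. Runx1, a transcription factor gene, is thus among the 3 highest for both acetyltransferase genes. An r over 0.6 was reached by 0 genes for Crebbp and Hdac3 and by 1 each for Ep300 and Creb1. For Bmi1 19 genes reached it, and for Hmgb1 13. Creb1 went with Raet1 (0.61) and Itga5 (0.56). Hdac3 went with Spink5 (0.59), Dusp6 (0.56) and Mfge8 (0.56), and had its lowest r with Il21r, the receptor gene for interleukin 21 (-0.77). That last value was -0.76 and -0.79 within the cartridges. Several of these genes were near the background: Spink5 was above the negative control probes in 19 of 24 samples, Il21r in 20 and Raet1 and Ifna4 in 13. The lowest values for the other members were -0.53 for Crebbp with Ifna4, -0.53 for Ep300 with Klra2 and -0.49 for Creb1 with Nfatc2.

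The partners of these regulators were read from 6 lists, some of which share genes. Among 5 tested genes of deacetylase complexes and general transcription, none was called in any comparison by limma, edgeR or DESeq2, and none had an unadjusted F test p under 0.05 in limma, which 19.5% of all genes had. Sap130, a subunit of the Sin3 deacetylase complex, differed by -0.16 ± 0.12 in ENT against vehicle and Polr1b by 0.00034 ± 0.23 (SE). Their limma adjusted p values in the F test were 0.679 and 0.449. Of 27 tested transcription factors that bind CBP and p300, none was called by limma or edgeR, with 2 at an unadjusted F test p under 0.05 in limma, against 19.5% of all genes. DESeq2 called 2, Stat6 and Trp53, in its test over the arms, and 7.57% of all genes. The smallest F test p values of the list belonged to Irf7, the interferon regulatory factor, and Stat6, the interleukin 4 signal carrier, with limma adjusted p of 0.144 and 0.159. Irf7 was above the negative control probes (their mean plus 2 SD) in 17 of 24 samples, and in 1 of 4 of the ENT arm, so no difference is given for it. The median of the list was -0.13 in ENT against vehicle, where that of all genes was -0.11.

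Of 11 tested kinases upstream of CREB, none was called by limma, with 1 at an unadjusted F test p under 0.05, against 19.5% of all genes. Mapk14 (p38α) and Syk had adjusted F test p values of 0.144 and 0.278. Mapk14 differed by 0.45 ± 0.14 (SE) in ENT+CTLA4 against vehicle, with a limma adjusted p of 0.108. Both edgeR and DESeq2 called Mapk14 in that comparison and over the arms, and DESeq2 also called it in ENT+CTLA4 against ENT and Syk over the arms. Over all genes edgeR called 1.45% in ENT+CTLA4 against vehicle and 1.45% over the arms, and DESeq2 3.38%, 2.42% and 7.57% in ENT+CTLA4 against vehicle, against ENT and over the arms. The arms of both comparisons lie on different cartridges. Of 12 tested CREB target genes, Nos2, the inducible nitric oxide synthase, was the 1 that limma called. It averaged 36.9 ± 7.22 in vehicle (30.2 to 45.7) and 18.2 ± 3.07 in ENT+PD1+CTLA4 (15.0 to 21.1; SD, n = 4 each), without overlap, as for 7.57% of all genes in this direction. It fell by 0.98 ± 0.21 (SE) on the log2 scale, with a limma adjusted p of 0.0355, and the adjusted p of its F test was 0.0423. Over all genes limma called 2.09% in ENT+PD1+CTLA4 against vehicle and 3.22% by the F test. The 2 arms were run on separate cartridges. In the fit with a cartridge term, which rests on the repeat-titled pair, the difference was -0.43 ± 0.33 (SE, adjusted p of 0.457). In the repeat-titled pair Nos2 averaged 21.7 (n = 2), against 32.6 over all 4 ENT+PD1 samples and not only those of the same titles. The adjusted p was 0.0961 with median rescaling, 0.346 with quantile normalization, 0.12 by edgeR and 0.11 by DESeq2. Leaving out single samples of the 2 arms gave between 0.0237 and 0.134. Egr3, an immediate early gene, had an adjusted F test p of 0.366.

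Of 13 tested receptors and partners of HMGB1, none was called by limma or edgeR, with 2 at an unadjusted F test p under 0.05 in limma, against 19.5% of all genes. DESeq2 called the cytokine gene Il1b in ENT+CTLA4 against vehicle, against ENT and over the arms, and Trem1, an activating receptor of myeloid cells, in ENT+CTLA4 against vehicle, all across cartridges. Ticam1, the adaptor TRIF, differed by -0.69 ± 0.17 (SE) in ENT against vehicle with an adjusted p of 0.456, and had an adjusted F test p of 0.0929 in limma. Tlr9, a receptor that takes part in sensing of DNA carried by HMGB1, had 0.188. The median of this list was 0.40 in ENT+PD1 against ENT, where that of all genes was 0.34. Of 8 tested cell cycle and survival genes alongside BMI1, none was called by limma or edgeR and none had an unadjusted F test p under 0.05 in limma, while DESeq2 called Trp53 over the arms, as above. Cdkn1a (p21) and Trp53 (p53) had adjusted F test p values of 0.269 and 0.298 in limma. Cdkn1a differed by 0.51 ± 0.17 and Trp53 by -0.25 ± 0.12 (SE) in ENT+PD1 against ENT, with adjusted p of 0.205 and 0.254.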

How the data were processed

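The authors deposited a table of normalized signal per gene from the nCounter instrument. Per the file headers, its features are 750 endogenous genes, 20 housekeeping genes, and 8 negative and 6 positive controls. Per the labels the panel is a myeloid panel, per the series' title a PanCancer Immune panel, and the genes were used as listed. Per the submitters' processing notes limma was used, with no version or step named, and how the signal was scaled is not given in the sources used here. Every sample had the same geometric mean of the housekeeping genes, and dividing by 1 factor per sample returned whole counts for 100% of values above 1 (tolerance 0.05). The deposited signal is therefore on a linear scale, with 82 values at exactly 1.

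Genes with a value of at least 20 in at least 4 of 24 samples were kept (621, with 149 left out). Limma 3.58.1 (R 4.3.3, lmFit and eBayes with trend) was fitted to log2(value + 1) of 22 samples in 6 groups, without the repeat-titled pair. P-values were adjusted by Benjamini-Hochberg over all 621 genes, and a gene was called at an adjusted p under 0.05. Differences are on the log2(value + 1) scale. Values of different genes come from different probes and were not compared as levels of expression. Correlations used 100000 permutations per relation, two-sided (numpy 2.4.6). Samples of a cartridge were permuted without regard to arm, so these p-values do not account for differences between arms. The fit was tested on counts simulated with known changes between ENT and vehicle. That simulation held no difference of cartridge, cell makeup or scaling, so it cannot say how the fit fares with these. EdgeR 4.0.16 (quasi-likelihood) and DESeq2 1.42.0 were run on the recovered counts as alternatives.

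The members and lists were chosen with earlier results of these data known. The text names all 6 members, the 3 genes of highest and the 1 of lowest correlation with each, every called gene of a list, and otherwise the 2 of smallest F test p. Some genes that this rule names are not reported here. Replicate numbers do not pair the samples: over 40 same-numbered pairs the median correlation of deviations was -0.033, from -0.453 to 0.634. Precision is limited by the counts and by the number of samples.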

Additional observations from a re-analysis of the deposited data

Results flagged for a closer look

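In 30 groups of 4 samples (6 genes in 5 arms), 1 value lay far from the other 3. Crebbp in ENT+PD1 replicate 2 was 395.15, while the other samples of the arm were at 310.1, 312.5 and 314.5. The gap was 0.949 of the range, above the critical value of Dixon's test, which chance passes in about 1 group in 20. The cause was not tested.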

How the results depend on the processing

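No member was called under any alternative, except Bmi1 without vehicle replicate 3, as given above. Of 864 member differences under alternatives, 793 stayed within the spread between replicates of the value reported, and 104 had the other sign. The largest difference that changed sign was 0.36 with the cartridge as a term and 0.18 without it. The counts of called genes over the panel were less stable. ENT+PD1 against ENT went from 2 to 0 with median rescaling, quantile normalization, a pseudocount of 10, edgeR, the compared groups only, the replicate block, and without ENT+PD1 5 and 6 (an alternative chosen after seeing the data), and to 1 with DESeq2. ENT+CTLA4 against vehicle went from 9 to 0 with quantile normalization, the compared groups only, the cartridge term and the replicate block, and to 21 with DESeq2. ENT+CTLA4 against ENT went from 0 to 15 with DESeq2 and 46 with the compared groups only. ENT+PD1+CTLA4 against vehicle went from 13 to 0 with median rescaling, quantile normalization, edgeR, DESeq2, the compared groups only, the cartridge term and the replicate block. ENT+CTLA4+HER2 against ENT+CTLA4 went from 14 to 0 with median rescaling, quantile normalization, the compared groups only and the replicate block, and to 23 with DESeq2. The F test went from 20 to 1 with quantile normalization, 9 with edgeR, 47 with DESeq2, 0 with the cartridge term, 6 with the replicate block and 7 without ENT+PD1 5 and 6. Leaving out 1 replicate at a time gave 0 to 26 in ENT+PD1 against ENT, the most without ENT+PD1 replicate 1. It gave 0 to 22 in ENT+CTLA4 against vehicle (most without vehicle replicate 3), 0 to 1 in ENT+CTLA4 against ENT and 0 to 18 in ENT+PD1+CTLA4 against vehicle. It gave 0 to 23 in ENT+CTLA4+HER2 against ENT+CTLA4 (most without ENT+CTLA4+HER2 replicate 1, where the lone sample is assumed to vary like the other groups) and 6 to 57 in the F test (most without ENT+PD1 replicate 2). The replicate block uses numbers that the samples merely share, and it called no member. The causes were not tested. For Creb1, whose variance within arms was 1.09 times that of counting, depth limits what smaller differences could be seen.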
